A study of Mus musculus with 10 samples.

Results

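The genes described here serve the presentation of peptides to T cells. These are mouse major histocompatibility complex (MHC) genes of class I and class II, the proteins that load and control them, and 3 costimulatory molecules. The rule works on symbols and uses no measured value. Every gene of the deposited table whose symbol starts with H2- was taken, apart from 3 symbols (H2-Ke6, H2-T-ps and H2-M6-ps), and B2m, Tap1, Tap2, Tapbp, Tapbpl, Erap1, Nlrc5, Cd74, Ciita, Ifi30, Cd80, Cd86 and Cd40 were added. This gave 55 of 56691 genes, 37 of class I, 15 of class II and 3 costimulatory, of which 45 lie on chromosome 17. Visceral fat of 10 male mice was sequenced as RNA, 1 library per mouse, 10 weeks old and on a chow diet for 8 weeks. The labels put 5 libraries in the genotype group WT (WT1 to WT5) and 5 in aADM2-tg (tg1 to tg5), a transgene for fat-restricted overexpression of adrenomedullin 2 per the title of the study. The labels read here name neither the promoter of the transgene nor the strain. The comparison asks how transcripts of visceral fat differ between these genotypes.

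Nearly every nucleated cell carries class I molecules, a heavy chain paired with beta-2-microglobulin, loaded in the endoplasmic reticulum with peptides that the proteasome cuts and the TAP transporter imports. Class II molecules are pairs of alpha and beta chains, carried mainly by dendritic cells, macrophages and B cells, with fat cells and endothelium able to make them too. The invariant chain Cd74 escorts them to endosomes, where H2-DM exchanges its remnant for a peptide. Interferon gamma raises both sets, largely through the transactivators Nlrc5 for class I and Ciita for class II.

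Counted reads numbered from 16030435 to 18214504 per library, so that 3 counts, the most that a count of 0 leaves room for, were 0.165 to 0.187 counts per 1000000 counted reads (CPM). These limits cover counting error only. Adm2, the gene that the transgene is named for, had 2 counts in WT3 and 0 in the other 9 libraries, so the counts gave no check of the labels. One of 2 header lines of the deposited table names the groups the other way round, and the labels, which the second header line follows, were used. Although the labels call the cells mature adipocytes, the tissue is visceral fat and markers of leukocytes, endothelium and mesothelium were counted in every library. In WT2 to WT5 and tg2, 22 markers of duct and ciliated epithelium summed to 172 to 539 CPM, against 14.5 to 21.2 CPM in WT1, tg1, tg3, tg4 and tg5. The comparison therefore sets against each other groups in which 4 of 5 WT libraries and 1 of 5 transgenic libraries hold this RNA. Because the samples are bulk tissue, fewer cells of a type and less RNA per cell cannot be told apart.

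In the transgenic libraries 9 of 22 tested class I members rose, most of them non-classical heavy chains, and 2 fell. No class II chain passed the test in either direction, and of the class II helpers the lysosomal thiol reductase Ifi30 fell. Of the 3 costimulatory members Cd86 fell. Of the 55 members 35 had enough counts for the test (edgeR quasi-likelihood, TMM scaling, Benjamini-Hochberg adjusted p under 0.05 over 16591 genes). Over all tested genes 13.8% were called higher and 12.7% lower. The median log2 change of aADM2-tg over WT was 0.31 for the 22 class I members, with 19 of 22 above 0, and 0.14 for the 10 class II members. The same median over all tested genes was 0.018, with 8608 of 16591 above 0. These counts and medians describe the members that passed a filter on low counts, not all members. Each log2 value below is this fitted change with its SE, and each ± is the SD over n = 5 libraries.

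**Figure D1:**
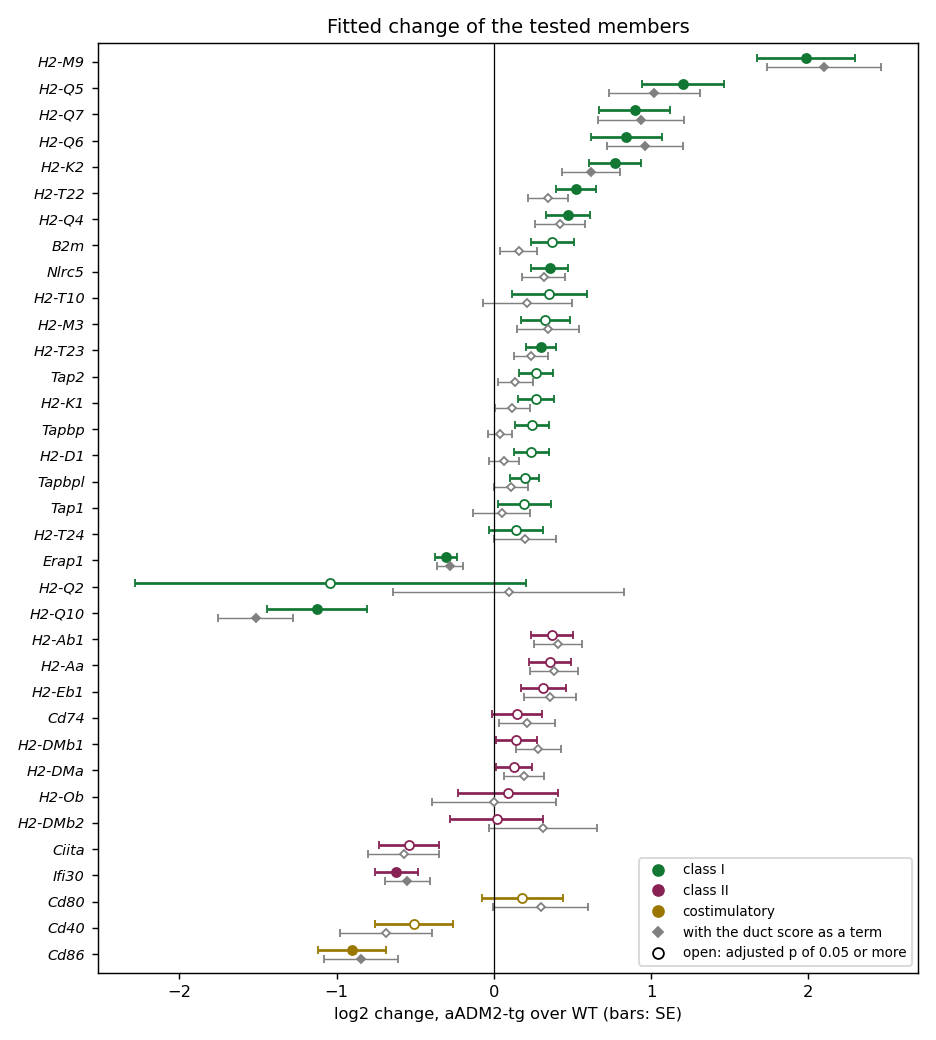
Fitted log2 change of aADM2-tg over WT for the 35 tested members, with bars for the SE. Circles come from the fit with genotype alone and diamonds from the fit that also holds a duct score, and filled symbols have an adjusted p under 0.05; H2-M9 lies furthest to the right in both fits, and H2-Q10 lies below 0 in both.

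Several heavy chain genes share promoter elements. Shown are 9 promoters, so that some members which rose can be read beside H2-Q10, which fell, and beside class II. They are the 180 bases before the start of the gene, 5′ to 3′ on the gene's strand, from RefSeq on GRCm38.p6. Capitals mark matches on either strand to 4 motifs: GGGGATTCCCC, the NF-kappa-B site of the class I enhancer, AGTTTCACTT, an interferon response element (both spelled as in H2-D1), and the core letters of the X box (TGATGA) and of the Y box (TGATTGG, which reads CCAATCA on the other strand). In the 250 bases of 32851 RefSeq promoters, GGGGATTCCCC was found in 0.0304%, AGTTTCACTT in 0.128%, TGATGA in 10.5% and TGATTGG in 7.23%. A promoter was at hand for 36 of the 55 members.

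The first 6 belong to H2-D1 and H2-K1, which did not pass the test, and to H2-Q4, H2-Q6, H2-Q7 and H2-T22, which rose. Then come H2-Q10, which fell, and the class II chains H2-Aa and H2-Eb1.
H2-D1 (chr17:35262914-35263093, + strand): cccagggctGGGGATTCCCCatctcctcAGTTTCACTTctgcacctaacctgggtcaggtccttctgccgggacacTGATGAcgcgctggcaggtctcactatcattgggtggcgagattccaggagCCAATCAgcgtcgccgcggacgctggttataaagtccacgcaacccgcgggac
H2-K1 (chr17:34000348-34000527, - strand): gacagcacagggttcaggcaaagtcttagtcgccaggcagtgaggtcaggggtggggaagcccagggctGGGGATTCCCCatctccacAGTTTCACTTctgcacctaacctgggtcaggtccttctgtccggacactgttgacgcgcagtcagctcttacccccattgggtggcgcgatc
H2-Q4 (chr17:35379437-35379616, + strand): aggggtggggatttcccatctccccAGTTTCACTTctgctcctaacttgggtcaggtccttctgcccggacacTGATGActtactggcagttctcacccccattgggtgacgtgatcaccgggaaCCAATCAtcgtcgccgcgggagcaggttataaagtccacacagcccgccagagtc
H2-Q6 (chr17:35424670-35424849, + strand): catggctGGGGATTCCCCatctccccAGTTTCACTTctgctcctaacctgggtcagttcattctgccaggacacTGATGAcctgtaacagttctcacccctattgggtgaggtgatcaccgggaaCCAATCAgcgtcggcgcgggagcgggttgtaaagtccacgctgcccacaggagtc
H2-Q7 (chr17:35438975-35439154, + strand): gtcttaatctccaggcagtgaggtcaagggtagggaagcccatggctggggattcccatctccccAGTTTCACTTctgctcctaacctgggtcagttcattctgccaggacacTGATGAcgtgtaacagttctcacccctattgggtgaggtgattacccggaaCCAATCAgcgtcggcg
H2-T22 (chr17:36042743-36042922, - strand): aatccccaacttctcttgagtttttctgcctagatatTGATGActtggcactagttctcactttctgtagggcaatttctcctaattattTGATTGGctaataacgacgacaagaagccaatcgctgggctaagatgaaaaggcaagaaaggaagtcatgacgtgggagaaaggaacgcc
H2-Q10 (chr17:35469909-35470088, + strand): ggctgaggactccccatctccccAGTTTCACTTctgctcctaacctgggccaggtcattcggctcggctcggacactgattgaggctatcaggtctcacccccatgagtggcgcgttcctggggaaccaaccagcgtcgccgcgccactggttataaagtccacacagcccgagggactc
H2-Aa (chr17:34287824-34288003, - strand): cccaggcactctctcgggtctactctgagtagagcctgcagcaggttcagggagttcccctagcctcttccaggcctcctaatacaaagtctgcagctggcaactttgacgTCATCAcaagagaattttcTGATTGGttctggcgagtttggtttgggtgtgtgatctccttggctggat
H2-Eb1 (chr17:34305687-34305866, + strand): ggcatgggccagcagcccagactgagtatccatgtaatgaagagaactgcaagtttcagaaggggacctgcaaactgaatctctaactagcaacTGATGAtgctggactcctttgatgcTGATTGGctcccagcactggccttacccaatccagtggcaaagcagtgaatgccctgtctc

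H2-D1 and H2-Q6 held all 4 motifs within these 250 bases. H2-Q4, H2-Q7 and H2-T22 held each motif but GGGGATTCCCC, with AGTTTCACTT of H2-T22 at base -193, outside the stretch shown. H2-K1 held the first pair only, at bases -111 and -92 against -171 and -152 in H2-D1, and H2-Q10 held AGTTTCACTT alone. The stretch of H2-K1 thus ends sooner after this pair, and bases past its end were not searched. Only exact letters were matched, so a site with another letter was not marked. The class II promoters of H2-Aa and H2-Eb1 held the X and Y box letters, at bases -69 and -50 in H2-Aa and at -86 and -61 in H2-Eb1, and neither of the first pair. Of the members that rose, H2-M9 and H2-T23 also had a promoter at hand, which is not shown. Each held the Y box letters alone, at base -57 in H2-M9 and -52 in H2-T23. AGTTTCACTT and the X box letters were thus not found in every member that rose. A match says only that the letters are there, and reads on these promoters were not measured.

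Of the classical class I heavy chains, which show peptides to CD8 T cells, H2-D1 was counted at 1109.8, 1019, 913, 1038 and 1156 CPM in WT1 to WT5 and at 1246, 1032, 1184, 1340.0 and 1106 CPM in tg1 to tg5. H2-K1 was counted at 731, 735, 610.3, 654 and 801 CPM in WT1 to WT5 and at 800.3, 726, 773, 989 and 779.9 CPM in tg1 to tg5. For both genes tg4 was the highest library and WT3 the lowest, and the groups overlapped. The log2 change was 0.24 (SE 0.111, adjusted p = 0.136) for H2-D1 and 0.27 (SE 0.116, adjusted p = 0.111) for H2-K1. Neither passed the test over all 10 libraries, and both did without tg2, with adjusted p = 0.0438 for H2-D1 and 0.0436 for H2-K1. Leaving out tg2 takes away the only transgenic library with duct RNA, so genotype and duct RNA are then harder to tell apart. In the fit that also holds a duct score, the log2 change was 0.07 for H2-D1 and 0.12 for H2-K1. Stretches of 50 bases shared with another gene made up 12.8% of H2-D1 and 9.63% of H2-K1, so a part of their reads may have been assigned to a related gene or dropped.

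Of 6 tested heavy chains of the Q region, which are non-classical, 4 rose and 1 fell. H2-Q5 stood at 4.26, 4.28, 3.55, 3.84 and 6.91 CPM in WT1 to WT5 and 10.5, 8.41, 6.8, 15.9 and 8.82 CPM in tg1 to tg5, and had a log2 rise of 1.20 (SE 0.2605, adjusted p = 0.00878). WT5 lay far above the other WT libraries and just above tg3, and the other 4 transgenic libraries lay above every WT library. H2-Q6 stood at 3.76, 4.33, 4.55, 2.88 and 6.74 CPM in WT and 8.52, 10.3, 5.68, 6.97 and 7.09 CPM in aADM2-tg, with tg2 the highest and WT5 above tg3. It rose by 0.84 (SE 0.226, adjusted p = 0.0205), a call lost without WT2 (adjusted p = 0.0528). H2-Q7, which with H2-Q6 encodes Qa-2, stood at 2.82, 5.68, 3.13, 4.23 and 4.04 CPM in WT and 7.44, 6.58, 4.55, 9.72 and 7.09 CPM in aADM2-tg. The rise was 0.90 (SE 0.225, adjusted p = 0.0161), with 4 of 5 transgenic libraries above all WT libraries. H2-Q4 was the most abundant Q gene, at 60.7, 78.4, 64, 66.1 and 78.02 CPM in WT and 87.2, 85.4, 68.8, 125 and 94.5 CPM in aADM2-tg. It rose by 0.47 (SE 0.138, adjusted p = 0.0288), again with 4 of 5 transgenic libraries above the WT range, and the call was lost in 3 of 10 fits that left out 1 library (WT1, WT3 or WT4, adjusted p = 0.0586 to 0.0687).

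Reads of the Q genes cannot all be placed. In H2-Q5, H2-Q6, H2-Q7 and H2-Q4, 36.4%, 32.0%, 26.4% and 21.8% of the 50-base stretches also occur in another gene, of which H2-Q7 was the closest for H2-Q5 (25.5%) and H2-Q6 (13.9%). The separate rises of these 4 genes are therefore uncertain as to which locus they come from.

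H2-Q10, a heavy chain known as a secreted product of the mouse liver, went the other way. It was counted at 36.8, 23.5, 15.7, 11.1 and 13.4 CPM in WT1 to WT5 and at 9.06, 6.89, 9.23, 9.06 and 10.2 CPM in tg1 to tg5. WT1 was far the highest, and all 5 transgenic libraries lay below every WT library. The fitted log2 change was -1.13 (SE 0.317, adjusted p = 0.0249). Without WT1 it was -0.75 (adjusted p = 0.0302), and the call was lost without WT2 (adjusted p = 0.0537) or without tg4 (adjusted p = 0.0504).

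The T region gene H2-T22, a ligand of some gamma delta T cell receptors, stood at 88.1, 94.2, 88.9, 92.4 and 97.5 CPM in WT1 to WT5 and 122, 100.5, 144, 152 and 112 CPM in tg1 to tg5. Its WT libraries were close together and all 5 transgenic libraries lay above them. The rise was 0.52 (SE 0.127, adjusted p = 0.0143). Of the 50-base stretches of H2-T22, 34.5% also occur in another gene, so the locus of this rise is uncertain too. H2-T10, which shares 31.2% of the 50-base stretches of H2-T22, ranged from 3.67 to 6.91 CPM in WT and from 4.71 to 9.77 CPM in aADM2-tg, with a log2 change of 0.35 (SE 0.241, adjusted p = 0.298). H2-T23, which encodes Qa-1, the ligand of the inhibitory NK receptor CD94-NKG2A, stood at 52.4, 56.6, 52.95, 57.5 and 59.5 CPM in WT and 71.2, 63.5, 55.02, 79.7 and 59.6 CPM in aADM2-tg. Only tg3 lay within the WT range. It rose by 0.30 (SE 0.0954, adjusted p = 0.03898), and 7 of 10 fits that left out 1 library (each WT library, tg1 or tg4) lost the call (adjusted p = 0.0569 to 0.0916).

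H2-M9, a heavy chain of the M region, gave the largest log2 rise of the 35 tested members from a very low level. It had 9, 11, 16, 9 and 16 counts in WT1 to WT5 and 69, 50, 22, 39 and 44 counts in tg1 to tg5, or 0.694 ± 0.214 and 2.66 ± 1.03 CPM (n = 5). All 5 transgenic libraries lay above all WT libraries, with tg1 the highest and tg3 the lowest of them. The log2 rise was 1.99 (SE 0.313, adjusted p = 0.00237), and it stayed between 1.76 and 2.14 when each library was left out. It shares 0.903% of its 50-base stretches with other genes. H2-K2, next to H2-K1 in name, stood at 4.93, 4.89, 5.38, 5.7 and 4.83 CPM in WT and 10.9, 6.95, 7.67, 9.77 and 6.67 CPM in aADM2-tg, again without overlap, and rose by 0.77 (SE 0.166, adjusted p = 0.00858). Of the other tested heavy chains, H2-M3, which presents formylated peptides, had a log2 change of 0.33 (SE 0.155, adjusted p = 0.141) and H2-T24 one of 0.14 (SE 0.17, adjusted p = 0.564).

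Thus 8 of 15 tested heavy chains rose and H2-Q10 fell. The groups did not overlap in CPM for 3 class I members that rose (H2-M9, H2-K2 and H2-T22) and 2 that fell (H2-Q10 and Erap1), where 17.1% of all tested genes had groups that did not overlap in either direction. After TMM scaling, whose factors ran from 0.916 in tg3 to 1.064 in WT2, H2-Q5 and H2-T23 were apart as well, and 17.6% of all genes were. Among transgenic libraries tg4 was the highest of all 10 for 15 of the 22 class I members, and WT1 was the lowest for 8.

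**Figure D2:**
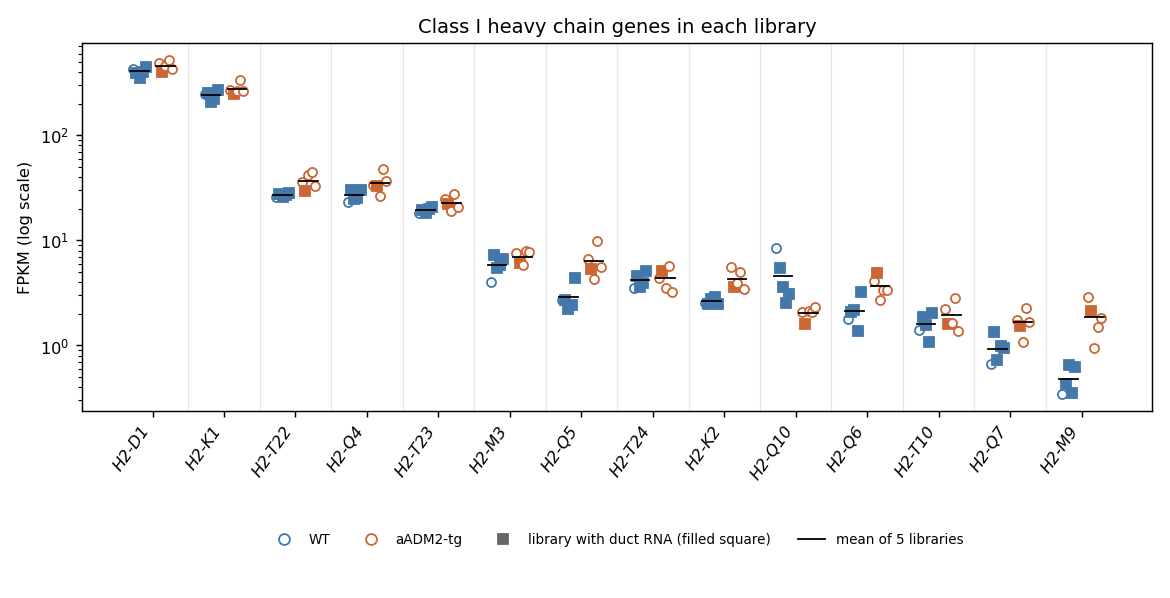
FPKM (counts per 1000000 counted reads and per kilobase of exon, log axis) of 14 tested class I heavy chains in each library, WT in blue and aADM2-tg in orange, with a black line at each mean. Filled squares are the 5 libraries with duct RNA; H2-D1 and H2-K1 lie highest, and for H2-M9, H2-K2 and H2-T22 the orange points all lie above the blue ones, with H2-Q10 the reverse.

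B2m, the light chain of all class I molecules, was the most abundant member per length, at 1319 ± 105 FPKM in WT and 1632 ± 263 FPKM in aADM2-tg (n = 5). Its counts were 1218, 1093, 1020.4, 1106 and 1236 CPM in WT1 to WT5 and 1508, 1148, 1548, 1639 and 1174 CPM in tg1 to tg5. In tg1, tg3 and tg4 it lay above the WT range, and in tg2 and tg5 within it. The log2 change was 0.37 (SE 0.138, adjusted p = 0.0677). It did not pass over all libraries, but did with DESeq2 (adjusted p = 0.0299), without tg2 (0.0152) and without tg5 (0.0469). Without tg2 no transgenic library with duct RNA is left. With the duct score as a term the log2 change of B2m was 0.16 (adjusted p = 0.403).

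Tap1 and Tap2 form the peptide transporter. Tap1 stood at 29.9, 31.3, 26, 25.4 and 28.8 CPM in WT and 26.2, 27.5, 23.2, 46.1 and 32.1 CPM in aADM2-tg, and its log2 change of 0.19 (SE 0.169, adjusted p = 0.418) rested on tg4, without which it was -0.0042. Tap2 stood at 49.3, 51.5, 46.1, 48.03 and 55.2 CPM in WT and 56, 49.99, 48.3, 67.7 and 66.7 CPM in aADM2-tg, with a log2 change of 0.27 (SE 0.108, adjusted p = 0.0876). In both genes tg4 was the highest library and the groups overlapped. Tapbp, tapasin, which holds the empty class I molecule at the transporter, stood at 215, 209, 181, 190.4 and 210.5 CPM in WT and 237, 186, 237, 246 and 228 CPM in aADM2-tg. Only tg2 of the transgenic libraries lay within the WT range, and the change was 0.24 (SE 0.108, adjusted p = 0.123). Its relative Tapbpl, a peptide editor, had a log2 change of 0.20 (SE 0.0931, adjusted p = 0.139). Vamp1, which overlaps Tapbpl on the opposite strand, had 146% of the counts of Tapbpl and a log2 change of 0.19 (SE 0.0730, adjusted p = 0.0733). Psmb9 overlaps Tap1 in the same way, with 43.1% of the counts of Tap1 and a log2 change of 0.56 (SE 0.176, adjusted p = 0.0373). Without tg2 the adjusted p was 0.0222 for Tap2, 0.0121 for Tapbp and 0.0394 for Tapbpl, again with no transgenic library with duct RNA left. With the duct score as a term the log2 change was 0.14 for Tap2, 0.04 for Tapbp and 0.11 for Tapbpl.

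Erap1, the aminopeptidase that trims peptides in the endoplasmic reticulum, fell. It stood at 88.6, 91.7, 88.1, 87.3 and 90.7 CPM in WT1 to WT5 and 67.3, 83.9, 66.4, 67.7 and 61.1 CPM in tg1 to tg5. The WT libraries were nearly equal, tg2 lay just below them and the other 4 transgenic libraries well below. The log2 change was -0.31 (SE 0.0702, adjusted p = 0.0111). Cast, which overlaps Erap1 on the opposite strand, had 306% of its counts and a log2 change of -0.04 (SE 0.0614, adjusted p = 0.613). The sources used here do not state whether reads were counted by strand, so those of such pairs may not have been told apart.

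Nlrc5, the class I transactivator, stood at 36.5, 34.7, 41.2, 36.5 and 44.8 CPM in WT and 46.1, 47.4, 35.7, 49.8 and 59.2 CPM in aADM2-tg, with tg5 the highest and tg3 within the WT range. It rose by 0.36 (SE 0.116, adjusted p = 0.0439), a call that 7 of 10 fits with 1 library left out did not keep (WT1, WT2, WT3, WT4, tg1, tg4 or tg5, adjusted p = 0.0724 to 0.116). With Nlrc5 and Erap1, 1 of 7 class I helpers rose and 1 fell. The immunoproteasome, which cuts peptides suited to class I, rose in all 5 listed genes: its catalytic subunits Psmb8 (log2 0.53, SE 0.145, adjusted p = 0.0234), Psmb9 (0.56, SE 0.176, adjusted p = 0.0373) and Psmb10 (0.54, SE 0.109, adjusted p = 0.00635), and its activator subunits Psme1 (0.27, SE 0.0641, adjusted p = 0.0132) and Psme2 (0.41, SE 0.121, adjusted p = 0.0301). Between 2 and 5 of these genes were called when 1 library was left out, with 2 without WT3 or without WT4 and 3 without WT2, tg1, tg3 or tg4. Of 7 genes of class I folding and peptide supply, the chaperone Hspa5 rose by 0.45 (SE 0.151, adjusted p = 0.0498), a call lost with limma-trend (adjusted p = 0.0978) and with the duct score (adjusted p = 0.192), and Lnpep, an aminopeptidase of cross-presentation that is also the insulin-regulated aminopeptidase of fat, fell by 0.80 (SE 0.102, adjusted p = 0.00126).

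The classical class II chains, which show peptides to CD4 T cells, did not pass the test. H2-Aa, the A alpha chain, stood at 213, 203, 258, 259 and 264 CPM in WT1 to WT5 and 263, 314, 267, 232 and 397 CPM in tg1 to tg5, with a log2 change of 0.36 (SE 0.134, adjusted p = 0.0707). Its partner H2-Ab1 stood at 120.3, 129, 151, 145 and 153 CPM in WT and 148, 182, 146, 148 and 242 CPM in aADM2-tg, with a change of 0.37 (SE 0.132, adjusted p = 0.0589). H2-Eb1, the E beta chain, stood at 143, 152, 182, 168 and 186 CPM in WT and 168, 209, 174, 160.4 and 283 CPM in aADM2-tg, with a change of 0.32 (SE 0.142, adjusted p = 0.122). For all 3 genes tg5 was far the highest library and tg2 the next. In CPM the groups overlapped, and for H2-Ab1 they were apart only after TMM scaling. With DESeq2 H2-Aa (adjusted p = 0.0435) and H2-Ab1 (adjusted p = 0.0334) passed, and H2-Aa also without tg4 (adjusted p = 0.0466). Without tg5 the change of H2-Ab1 was 0.23 (adjusted p = 0.0604). H2-Ea, the partner of H2-Eb1, had no read in any library.

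H2-DMa and H2-DMb1, the chains of the peptide exchanger H2-DM, stood at a lower level. H2-DMa was counted at 16.8, 18, 18.7, 18.1 and 17.5 CPM in WT and 18.7, 22.5, 15.9, 13.9 and 22.5 CPM in aADM2-tg, and H2-DMb1 at 13.3, 19.7, 19.6, 21.2 and 18.5 CPM in WT and 18.3, 21.3, 16.6, 16.2 and 25.1 CPM in aADM2-tg. Transgenic libraries lay on both sides of the WT median in each gene, tg5 or tg2 above and tg4 below. The changes were 0.13 (SE 0.113, adjusted p = 0.425) for H2-DMa and 0.14 (SE 0.1299, adjusted p = 0.441) for H2-DMb1. H2-DMa overlaps Brd2, which had 1039% of its counts, on the opposite strand, and 22.7% of H2-DMb1 is shared with H2-DMb2. H2-DMb2 (log2 0.02, SE 0.296, adjusted p = 0.968) and H2-Ob, a chain of the H2-DM inhibitor H2-DO (log2 0.09, SE 0.318, adjusted p = 0.851), had changes near 0 that turned sign when single libraries were left out.

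Cd74, the invariant chain, was the most abundant class II member per length, at 248 ± 27.97 FPKM in WT and 264 ± 75.5 FPKM in aADM2-tg (n = 5). Its counts were 369, 361, 452, 455 and 441 CPM in WT1 to WT5 and 389, 505, 366, 319 and 633 CPM in tg1 to tg5. The transgenic libraries held both the highest value, in tg5, and the lowest, in tg4. Its log2 change was 0.15 (SE 0.1595, adjusted p = 0.523), and -0.0092 without tg5.

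The class II transactivator Ciita stood at 9.41, 9.51, 11.3, 11.8 and 15.6 CPM in WT and 9.003, 7.01, 5.43, 6.698 and 9.95 CPM in aADM2-tg. All transgenic libraries but tg5 lay below every WT library. The log2 change was -0.54 (SE 0.189, adjusted p = 0.0566), which missed the threshold here and passed it with DESeq2 (adjusted p = 0.0318) and without tg5 (adjusted p = 0.0369). Dexi, on the opposite strand, had 107% of the counts of Ciita and a log2 change of -0.04 (SE 0.0852, adjusted p = 0.751). Ifi30, which reduces disulphide bonds of proteins on their way to class II, stood at 29.2, 31.6, 26.5, 30.3 and 27.3 CPM in WT1 to WT5 and 17.3, 23.7, 13.7, 14.1 and 22.2 CPM in tg1 to tg5. All 5 transgenic libraries lay below every WT library, with tg2 and tg5 nearest to them. It fell, with a log2 change of -0.62 (SE 0.134, adjusted p = 0.00873).

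Of 10 tested class II members, then, 0 rose and 1 fell by edgeR, where an unadjusted p under 0.05 was reached by 3 upward and 2 downward. DESeq2 called 2 higher (H2-Aa and H2-Ab1) and 2 lower (Ciita and Ifi30), and limma-trend 0 higher and 1 lower. All 7 tested class II chains had a log2 change above 0, with a median of 0.14, where 8608 of all 16591 tested genes had a change above 0. The tg5 library was the highest of all 10 for 7 of the 10 members. Summed over the 12 class II chains, the level was 511 to 647 CPM in WT and 575 CPM (tg4) to 981 CPM (tg5) in aADM2-tg.

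**Figure D3:**
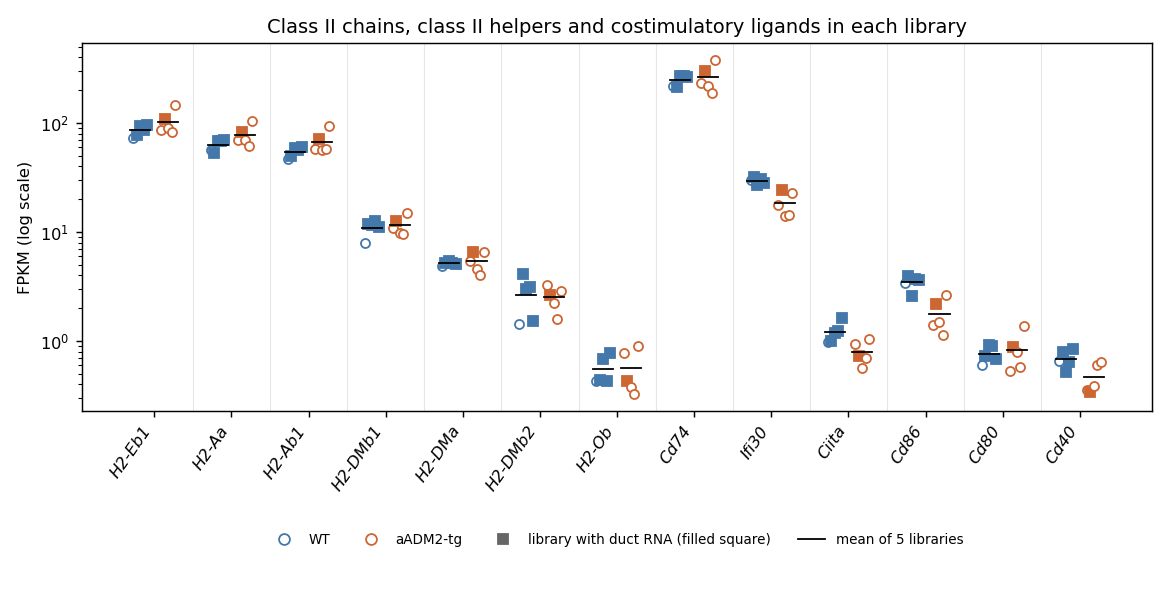
FPKM (log axis) of the class II chains, the class II helpers and the costimulatory members in each library. WT is in blue and aADM2-tg in orange, with a black line at each mean and filled squares for the 5 libraries with duct RNA. The highest orange point of H2-Eb1, H2-Aa, H2-Ab1 and Cd74 is tg5 in each case, and for Ifi30 every orange point lies below the blue ones.

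Cd80 and Cd86 give T cells their second signal through CD28, and Cd40 receives the signal that licenses the presenting cell. Cd86 stood at 12.4, 14.5, 9.51, 13.4 and 13.1 CPM in WT1 to WT5 and 5.102, 8.05, 5.49, 4.17 and 9.71 CPM in tg1 to tg5. Only tg5 reached above the lowest WT library. Cd86 fell from 12.6 ± 1.88 to 6.505 ± 2.297 CPM (n = 5), a log2 change of -0.90 (SE 0.216, adjusted p = 0.0134). Cd40 stood at 2.21, 2.7, 1.77, 2.201 and 2.86 CPM in WT and 1.2, 1.16, 1.31, 2.03 and 2.204 CPM in aADM2-tg, with a change of -0.51 (SE 0.248, adjusted p = 0.152), and 3 transgenic libraries lay below the WT range. Cd80 stood at 2.21, 2.7, 3.43, 3.33 and 2.53 CPM in WT and 1.98, 3.29, 2.93, 2.14 and 5.06 CPM in aADM2-tg, with a change of 0.18 (SE 0.257, adjusted p = 0.628). Without tg5, its highest library, the change of Cd80 was -0.06. Of 3 other tested costimulatory and inhibitory ligands 0 passed in either direction by edgeR (1 higher at an unadjusted p under 0.05, 0 by DESeq2 or limma-trend), among them Cd274, which encodes PD-L1 (log2 0.39, SE 0.214, adjusted p = 0.195), and Icosl (log2 0.35, SE 0.160, adjusted p = 0.125).

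The remaining 20 members had too few reads for the test. In 9 of them (H2-M1, H2-M10.1, H2-M10.3, H2-M10.4, H2-M10.5, H2-M10.6, H2-Q3, H2-Ea and H2-Pb) no read was counted. In 6 (H2-Bl, H2-M10.2, H2-M10.5-ps1, H2-M11, H2-T3 and H2-Pa) no library had more than 3 counts. The other 5 were compared with a two-sided exact permutation test on the mean of log2(CPM + 1). H2-M2 had 2, 2, 4, 5 and 7 counts in WT1 to WT5 and 8, 0, 0, 1 and 2 counts in tg1 to tg5 (exact permutation p = 0.333). For H2-M5, H2-Q1, H2-Eb2 and H2-Oa p was 0.976, 0.397, 0.897 and 0.865, and adjusted over these 5 genes each p was 0.976, so at these counts no difference could be detected.

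H2-Q2 was counted in the libraries with duct RNA. It had 0, 38, 32, 27 and 19 counts in WT1 to WT5 and 0, 50, 0, 2 and 0 counts in tg1 to tg5. Each of the 5 libraries with duct RNA had at least 19 counts and each of the other 5 had at most 2. Its log2 change was -1.04 (SE 1.24, adjusted p = 0.562), and 0.09 (adjusted p = 0.949) with the duct score, the mean log2 CPM of the 22 markers, as a term beside genotype. Without tg2 it was called lower (adjusted p = 0.00683). The 4 transgenic libraries of that comparison had 2 counts in all and duct marker sums of 14.5 to 21.2 CPM. Germ cell markers lay mostly in the same libraries, with sums of 2.10 to 228 CPM in WT and 0 to 19.3 CPM in aADM2-tg. Of 5 tested germ cell markers 4 fell and 0 rose, Akap4 the first of them by adjusted p (log2 -5.42, SE 1.47, adjusted p = 0.0217).

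With the duct score as a term, 5 class I members stayed called higher (H2-M9, H2-Q5, H2-Q6, H2-Q7 and H2-K2) and 2 lower. The log2 change of H2-M9 was then 2.10 (SE 0.363, adjusted p = 0.00475) and that of H2-Q10 was -1.52 (SE 0.237, adjusted p = 0.00325). H2-Q4 (0.42, adjusted p = 0.108), H2-T22 (0.34, adjusted p = 0.0918), H2-T23 (0.24, adjusted p = 0.174) and Nlrc5 (0.32, adjusted p = 0.142) were no longer called. The changes of B2m, H2-D1, H2-K1 and Tapbp were 0.16, 0.07, 0.12 and 0.04 in that fit. Erap1 (-0.28, adjusted p = 0.0450), Ifi30 (-0.55, adjusted p = 0.0297) and Cd86 (-0.84, adjusted p = 0.0362) stayed called lower. Of the immunoproteasome genes 1 of 5 stayed called, and over all genes 864 were called higher and 1343 lower. Of the lists described below, the fit with the duct score called 0 of 12 genes of interferon receptors and signalling, 1 of 8 promoter factors, 3 of 14 macrophage markers, 2 of 10 mature adipocyte markers, 2 of 10 endothelial markers, 1 of 10 dendritic cell markers and 3 of 5 germ cell markers. It called 1 of 7 genes of class I folding and peptide supply (Lnpep, lower). It called 1 of 8 proteases and ubiquitin ligases of the class II route, where Ctsh was lost (adjusted p = 0.144), and 1 of 9 T and NK cell markers, where Cd3g was lost (adjusted p = 0.121). Leaving out all 5 duct libraries leaves WT1 alone against 4 transgenic libraries, so that fit shows sizes and is no check of a call. The log2 change there was 2.30 for H2-M9, 1.30 for H2-Q7, 1.25 for H2-Q5, 0.86 for H2-Q6, 0.78 for H2-K2, 0.58 for H2-Q4, 0.54 for H2-T22, 0.33 for Nlrc5, 0.29 for H2-T23, -0.48 for Erap1, -0.85 for Ifi30 and -1.07 for Cd86. None of these 12 passed the test (adjusted p = 0.171 to 0.572). H2-Q10 did (-2.02, adjusted p = 0.00865), with WT1 its highest WT library.

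**Figure D4:**
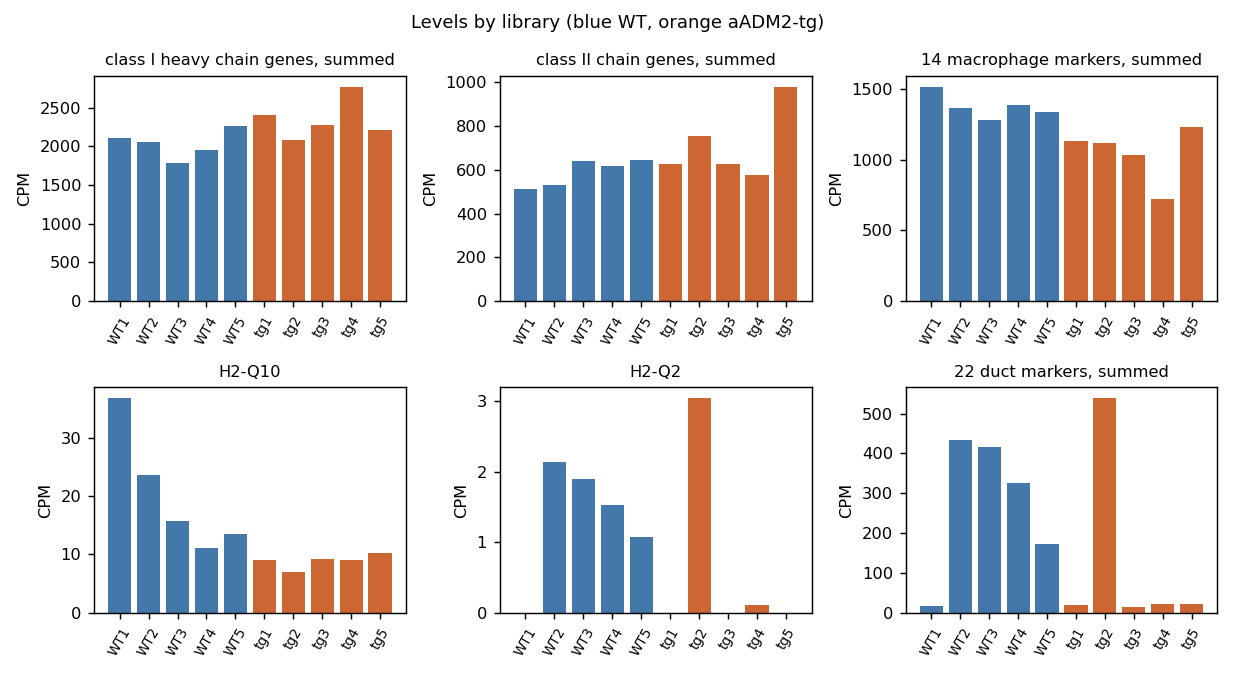
Bars from 0 of the CPM in each library (blue WT, orange aADM2-tg) for the summed class I heavy chains, the summed class II chains, 14 summed macrophage markers, H2-Q10, H2-Q2 and 22 summed duct markers. The bars of H2-Q2 and of the duct markers are high in WT2 to WT5 and tg2, and the macrophage bar of tg4 is the lowest at 722 CPM.

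Over all tested genes 13.8% were called higher and 12.7% lower. Of 12 tested genes of interferon receptors and signalling, Irf1, the factor that binds interferon response elements, rose by 0.51 (SE 0.137, adjusted p = 0.0218), and the receptor chain Ifnar1 (-0.25, SE 0.0618, adjusted p = 0.0157) and the kinase Jak2 (-0.23, SE 0.0637, adjusted p = 0.0246) fell. Of 8 factors that bind class I and class II promoters, Nfya, the NF-Y subunit that recognises the Y box, rose by 0.57 (SE 0.0945, adjusted p = 0.00288) and Creb1 fell by 0.27 (SE 0.0650, adjusted p = 0.0133). Of 19 interferon-stimulated genes 0 passed in either direction by edgeR, with 1 higher at an unadjusted p under 0.05, 1 higher by DESeq2 and 0 by limma-trend. Their median log2 change was 0.18, and Ifit1 (0.60, SE 0.284, adjusted p = 0.139) and Ifit2 (-0.31, SE 0.187, adjusted p = 0.246) lay on either side of 0.

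Of 8 proteases and ubiquitin ligases of the class II route, the endosomal proteases Lgmn (-0.49, SE 0.0993, adjusted p = 0.0065) and Ctsh (-0.40, SE 0.123, adjusted p = 0.0346) fell and 0 rose. Of 6 tested MHC-like genes outside the complex 0 passed by edgeR or DESeq2 (2 higher and 2 lower at an unadjusted p under 0.05, and 1 lower by limma-trend). Among them Cd1d1, which presents lipids to NKT cells, had a log2 change of 0.37 (SE 0.148, adjusted p = 0.0840), and Mr1 one of -0.21 (SE 0.0866, adjusted p = 0.0986).

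Markers of the cells that carry these molecules moved as well, and their part in the results above was not tested. Of 14 macrophage markers 4 fell, Adgre1 (-0.77, SE 0.127, adjusted p = 0.00299), Mrc1 (-0.73, SE 0.159, adjusted p = 0.0089), Csf1r (-0.58, SE 0.139, adjusted p = 0.0136) and Itgam (-0.39, SE 0.124, adjusted p = 0.0382), and 0 rose. The 14 markers summed to 1280 to 1516 CPM in WT and 722 to 1231 CPM in aADM2-tg, with none at 0 in any library. This stands beside the falls of Ifi30, Cd86, Lgmn and Ctsh. All 7 tested class II chains and Cd74 (0.15) had a log2 change above 0, with none of them called. Of 10 dendritic cell markers Zbtb46 rose (0.67, SE 0.144, adjusted p = 0.0087), and the list summed to 97.5 to 129 CPM in WT and 109 to 164 CPM in aADM2-tg. That sum came mostly from Fscn1 and Zbtb46, and the other markers lay between 0.250 and 11.2 CPM in each library. Zbtb46 is also made by endothelium, of whose 10 markers 4 rose, among them Robo4 (1.03, SE 0.153, adjusted p = 0.00194) and Esam (0.68, SE 0.124, adjusted p = 0.00434), with sums of 1124 to 1484 CPM in WT and 1241 to 1801 CPM in aADM2-tg.

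Of 10 mature adipocyte markers 7 rose and 0 fell, led by Plin4 (0.69, SE 0.121, adjusted p = 0.00373), Cidec (0.73, SE 0.141, adjusted p = 0.00539), Plin1 (0.39, SE 0.104, adjusted p = 0.0198) and Retn (0.47, SE 0.130, adjusted p = 0.0229). Their sum was 26583 to 31494 CPM in WT and 32248 to 43172 CPM in aADM2-tg, highest in tg3. Of the class I members that rose, tg3 was the lowest transgenic library for H2-M9, H2-Q4, H2-Q5, H2-Q6, H2-Q7, H2-T23 and Nlrc5. It was not the lowest for H2-K2 or H2-T22. Of 9 tested T and NK cell markers Cd3e (1.59, SE 0.339, adjusted p = 0.00837) and Cd3g (1.15, SE 0.299, adjusted p = 0.0186) rose, from 0.423 ± 0.209 to 1.23 ± 0.373 CPM for Cd3e (n = 5). Neither reached the FPKM filter of limma-trend. The other 7 did not pass by edgeR, and the median log2 change of the 9 was 0.029. All 14 summed to 10.7 to 13.8 CPM in WT and 10.5 to 20.8 CPM in aADM2-tg. Of 9 tested B cell markers 0 passed by edgeR (1 higher at an unadjusted p under 0.05, 1 by DESeq2, 0 by limma-trend). Ms4a1 (0.47, SE 0.640, adjusted p = 0.610) and Cd79a (0.71, SE 0.446, adjusted p = 0.257) were among them, and the sum of the list, 180 to 237 CPM, came mostly from Ebf1, which fat cells also express. No mesothelial or duct marker passed by edgeR, DESeq2 or limma-trend, and none had an unadjusted p under 0.05.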

How the data were processed

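Poly(A) RNA of visceral fat from 10 mice was analysed, 1 library per mouse. The deposited table holds raw read counts per gene, made by the authors with HISAT2 2.2.1 and HTSeq 0.6.1 per the submitters' processing notes. It also holds FPKM, which are the authors' counts per kilobase of deposited exonic length (in bases, another unit) and per 1000000 counted reads. FPKM recomputed from the counts matched within 0.01 for 56691 genes in 6 of 7 libraries and for 56661 in WT3, and 3 columns of per-sample values, whose names match more than 1 sample, were not used. The sources used here name no genome build, annotation or strand setting, so coordinates are printed only for RefSeq promoters on GRCm38.p6. The titles and descriptions of 3 transgenic samples disagree on their number, and the numbers 3 to 5 follow the count columns, which leaves the group of each unchanged.

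Counts were fitted in R 4.3.3 with edgeR 4.0.16 (filterByExpr, TMM, quasi-likelihood test, genotype as the only term), and p-values were adjusted by Benjamini-Hochberg over 16591 genes with a threshold of 0.05. The method was tested on simulated data. No within-group pair of libraries agreed within sampling noise. CPM are divided by all counted reads, without TMM. Alternatives were DESeq2 1.42.0, its size factors in edgeR, limma-trend (limma 3.58.1) on log2(FPKM + 1) for genes with at least 1 FPKM in 5 libraries, no expression filter, a mean of at least 10 CPM, each library left out, the replicate number as a block, a duct score as a term, and leaving out WT1 with tg2 or the 5 libraries with duct RNA. Shared stretches of 50 bases were counted over GENCODE M21 transcripts.

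The members and lists were chosen with earlier results of these data known. By rule, values in every library are given for the defining genes of each class and for the other members past the threshold, and of each other list up to 4 called genes by adjusted p are named, or 2 members where none was called. A gene of these lists is not reported here. Libraries are separate mice per the labels. Python 3.11.15 with matplotlib 3.10.9 made the figures.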

Additional observations from a re-analysis of the deposited data

Results flagged for a closer look

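In 70 groups of 5 libraries, 1 per tested member and genotype, 3 held a library that stood apart by Dixon's gap test for 5 values, at the 95% level, where chance gives about 1 group in 20. H2-K1 stood at 988.6 CPM in tg4 against 725.6 to 800.3 CPM in the other transgenic libraries. H2-Q2 stood at 3.048 CPM in tg2, the 1 transgenic library with duct RNA, against 0 to 0.1098 CPM in the others. H2-Q5 stood at 6.909 CPM in WT5 against 3.546 to 4.275 CPM in the other WT libraries, and without WT5 its log2 change was 1.39 (adjusted p = 0.00752, edgeR).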

How the results depend on the processing

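Limma-trend tested 20 class I members against 22 in the main fit, and H2-M9 was not among them. The calls it lost were H2-Q4 (adjusted p = 0.0609), H2-T23 (adjusted p = 0.0924) and Nlrc5 (adjusted p = 0.114). Fits without tg2 lack the only transgenic library with duct RNA. In the main fit the count of class I members called higher was 9. It was 5 with the duct score, 5 with limma-trend, 2 of 13 tested at a mean of 10 CPM or more, 14 without WT1 and tg2, 0 without the 5 duct libraries (WT1 alone is left, so no check of a call), and 6 to 15 with 1 library left out (15 without tg2). Those called lower numbered 2, 1 without the duct libraries, and 1 to 3 with 1 library left out. For class II, 0 were higher (2 by DESeq2, 1 with the replicate block, 0 to 1 with 1 library left out). Class II called lower was 1 (2 by DESeq2, 2 with the replicate block, 0 without the duct libraries, 1 to 2 with 1 library left out). Costimulatory members called lower went from 1, macrophage markers called lower from 4, to 0 without the duct libraries. Immunoproteasome genes called higher numbered 5, 1 with the duct score, 3 with the replicate block, 0 without the duct libraries and 2 to 5 with 1 library left out. Over all genes 2285 were higher and 2107 lower. These became 864 and 1343 with the duct score, 1 and 34 without the duct libraries, and 1370 to 3050 and 1609 to 3629 with 1 library left out, with 3622 lower without WT1 and tg2. The cause of these shifts was not tested, apart from the fewer libraries of some fits. The replicate number did not pair the libraries: correlations of deviations for equal numbers were 0.486, 0.674, -0.385, -0.255 and 0.039, and the block left the class I counts at 9 and 2. Changes of sign, none of a called gene, were H2-Q2 0.094 with the duct score and H2-DMb2 -0.00077 with limma-trend and -0.11 without WT1 and tg2. With 1 library left out Tap1 ranged from -0.0042 to 0.26, H2-DMb2 from -0.13 to 0.21, H2-Ob from -0.14 to 0.24, Cd74 from -0.0092 to 0.24 and Cd80 from -0.061 to 0.29 (log2). At this depth members with 3 counts or fewer in every library were not compared.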
